A study of Schizosaccharomyces pombe with 6 samples.

Results

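The mug genes of fission yeast (*Schizosaccharomyces pombe*) were named for one property, a transcript that becomes more abundant when cells go through meiosis. Most received their name from expression surveys of meiosis rather than from a known function, and many still carry no other name. Their levels were compared here between cells lacking isp7 and wild-type cells, both in vegetative growth. A probe set was taken as a mug gene where the array's annotation names a single *S. pombe* gene with a symbol made of mug and a number. The rule found 115 of the 2917 *S. pombe* probe sets that name 1 gene. Each of the 115 mug genes had 1 probe set, so members and genes are the same number. Of these, 91 still carry a mug symbol in the RefSeq gene table and 24 are now known by another one, such as say1 for mug180. Another 61 measured genes hold a mug name only as a synonym and were not members. The cultures were not meiotic according to the labels, so whether these genes rise in meiosis could not be checked on these arrays.

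In fission yeast, starvation for nitrogen leads haploid cells of opposite mating type, P and M, to mate, and the diploid then enters meiosis and forms spores. The transcription factor Ste11 starts this programme, and the RNA-binding protein Mei2 is needed for entry into meiosis. In growing cells the kinase Pat1 inhibits Mei2. Many meiotic transcripts that are made in growing cells are removed by a system in which the protein Mmi1 recognizes them and Red1 helps to degrade them. Later, the forkhead factor Mei4 drives genes of the meiotic divisions, and Atf21 is among the factors that act after it. TOR signalling, which couples growth to nutrients, and with it the nitrogen source, is known to control when cells leave growth for mating.

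The 6 arrays were Affymetrix yeast arrays, 3 hybridized with RNA of cells null for isp7, a gene of the dioxygenase family that requires 2-oxoglutarate and iron, and 3 with RNA of wild-type cells. Both strains were in mid-log phase in Edinburgh minimal medium whose nitrogen source was ammonium chloride, and hot phenol was used to prepare the RNA. The labels give neither mating type nor further alleles, and nothing says that replicates came from separate cultures, so the p-values cover only array-to-array spread, part of which may be technical. Values are on the log2 scale, and a change is the isp7 null mean minus the wild-type mean.

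The isp7 transcript checked the labels. It was at 6.02, 6.38 and 6.17 in the null arrays, against 11.70, 11.63 and 11.55 in the wild-type arrays. All null values were below the background level described next, and all wild-type values were far above it. Arrays of 1 group correlated at 0.998 to 0.999 and arrays of different groups at 0.973 to 0.978. Because whole cultures were measured, fewer cells of a type and less RNA per cell cannot be told apart.

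The array also carries probe sets for budding yeast (*Saccharomyces cerevisiae*), which have no intended target in fission yeast RNA and served as the background. The mean values of these 2601 probe sets lay between 4.24 and 8.43 with a median of 5.77. The background level was set at their 95th percentile, 7.08. None of them differed between groups by 1.5-fold or more, and the central 95% of their changes lay between -0.20 and 0.18.

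Among the mug genes, 14 of 115 (12.2%) were higher in the isp7 null by at least 1.5-fold with an adjusted p under 0.05 in limma, the rule for rose and fell in what follows, while 4.22% of all *S. pombe* probe sets met it. The same rule found 6 of 115 (5.22%) lower in the null, close to the 4.39% among all probe sets. In either direction 20 of 115 passed, against 8.6% of all probe sets. Here and below, all probe sets are the 2917 that name 1 *S. pombe* gene. The 5177 probe sets unnamed here were left out, so genes without a named probe set are not in these shares. The rises were led by mug180, mug143, mug5, mug147 and mug182, the members that passed 2-fold, and the falls by mug8, the member that fell by more than 2-fold. At the 2-fold threshold 4.35% of mug genes were higher and 0.87% lower, against 1.2% and 0.48% of all probe sets. After each array was centred on its median the split was 15 rises and 3 falls, with no share over all probe sets given for that fit. The exact two-sided permutation test of a single gene cannot go below p = 0.1 with 3 arrays against 3, so every adjusted p here comes from the fit across all probe sets.

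**Figure D1:**
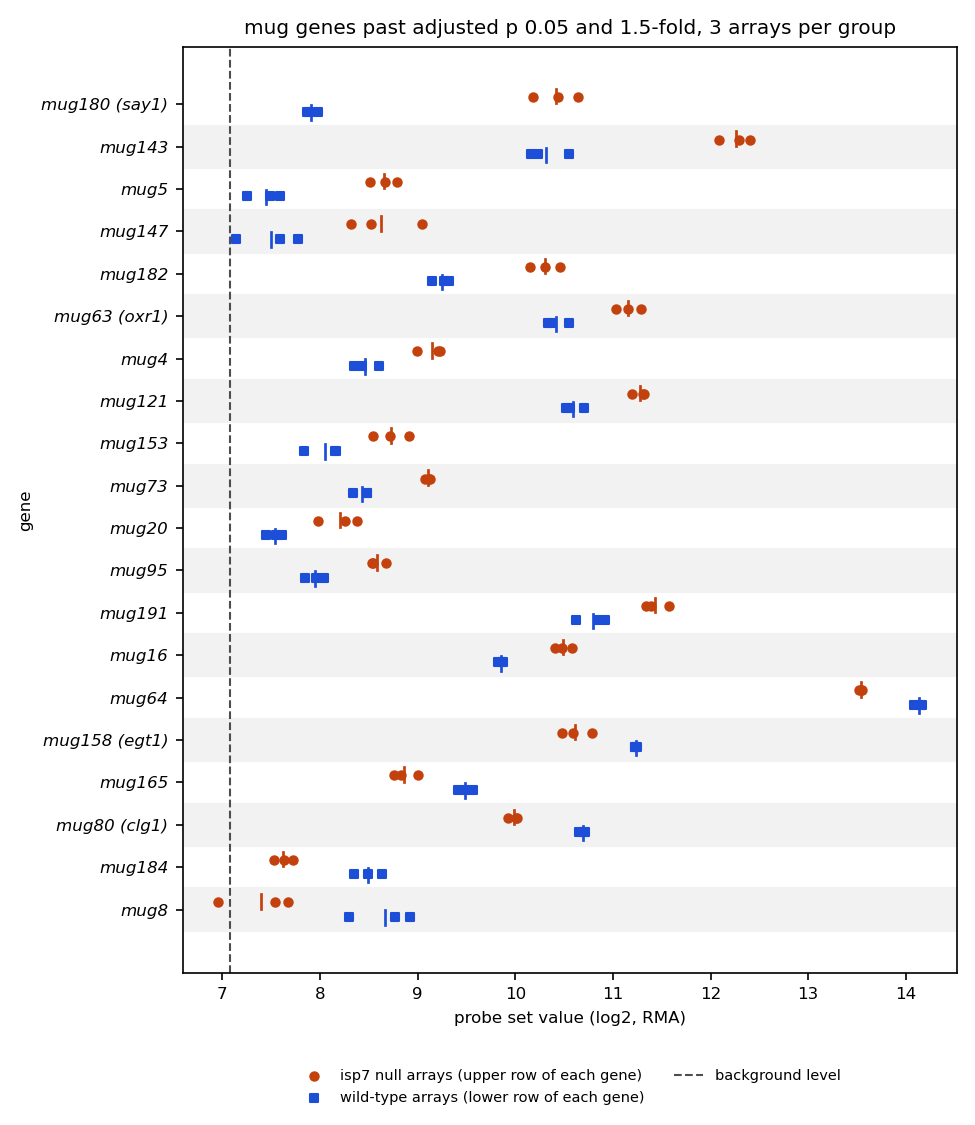
The plot shows the log2 value of each mug gene that rose or fell on every array, with isp7 null arrays as circles in the upper row of a gene and wild-type arrays as squares in the lower row. Short vertical bars are group means and the dashed line is the background level of 7.08. In all 20 genes the null arrays and the wild-type arrays do not overlap, which the rule that picked these genes favours. Among all *S. pombe* probe sets every null array lies above every wild-type array for 30.9% and below for 45.2%. Of mug8, 1 null array lies below the background level.

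The largest rise was that of mug180 (SPBPB2B2.02), now called say1 after the budding yeast enzyme that removes acetyl groups from sterols. Its values were 10.19, 10.64 and 10.44 in the null arrays, against 7.98, 7.87 and 7.89 in the wild-type arrays. Every null array was far above every wild-type array, and the wild-type values were less than 1 log2 unit above the background level. The change was 2.51 (SE 0.11, adjusted p = 5.17e-06), a fold of 5.70.

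The next gene, mug143 (SPAC167.06C), was at 12.29, 12.41 and 12.08 in the null arrays, against 10.55, 10.16 and 10.23 in the wild-type arrays. Both groups were far above the background level and did not overlap. Its change was 1.94 (SE 0.12, adjusted p = 1.32e-05), or 3.85-fold. In the RefSeq table mug143 lies wholly within the protein-coding gene dbs2, which has no named probe set here. Strand was not compared, so whether dbs2 adds to the signal of mug143 is uncertain.

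The gene mug5 (SPAC14C4.08) was at 8.67, 8.51 and 8.79 in the null arrays, against 7.49, 7.25 and 7.59 in the wild-type arrays. The wild-type arrays lay close to the background level and all null arrays more than 1 unit above it. Its change was 1.21 (SE 0.10, adjusted p = 4.58e-05), or 2.31-fold.

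For mug147 (SPBC56F2.06) the null arrays were at 8.32, 9.04 and 8.52 and the wild-type arrays at 7.59, 7.14 and 7.77. The groups did not overlap, but the spread within each was among the widest of the rises, with the null array 2 high and the wild-type array 2 low. Its change of 1.13 had an SE of 0.22 and an adjusted p of 0.00265, and the fold was 2.19.

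The gene mug182 (SPAC15A10.05C) was at 10.15, 10.46 and 10.31 in the null arrays, against 9.27, 9.15 and 9.32 in the wild-type arrays. The groups were apart and both clearly above background. Its change was 1.06 (SE 0.082, adjusted p = 3.47e-05), or 2.08-fold. Its neighbour in the genome, zpr1, fell by 0.69 (SE 0.046, adjusted p = 1.87e-05). In the RefSeq table a non-coding RNA gene covers all of mug182, and whether that RNA adds to its signal was not tested. The same limit holds for other mug genes that rose or fell, of which 17 in all overlap a non-coding gene. Such a gene also covers all of mug153 and mug95 and 99.9% of mug73.

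The other 9 rises were smaller, between 0.64 and 0.75. The largest of them was mug63, now oxr1, whose product belongs to a family tied to resistance to oxidative stress, with values of 11.29, 11.16 and 11.03 in the null arrays and 10.54, 10.36 and 10.33 in the wild-type arrays. Its groups were apart by more than the spread within either, and its change was 0.75 (SE 0.079, adjusted p = 0.000136). The changes of mug4 and mug121 were 0.69 (SE 0.085) and 0.68 (SE 0.057), those of mug153 and mug73 both 0.67 (SE 0.12 and 0.045). The changes of mug95, mug191 and mug16 were all 0.64 (SE 0.061, 0.091 and 0.044). The adjusted p-values of these 7 genes lay between 1.94e-05 for mug73 and 0.00156 for mug153.

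Of the 14 rises, mug20 has the best known role. Its product is part of the linear elements, the protein threads along fission yeast chromosomes in meiosis on which recombination takes place, together with Rec10, Rec25 and Rec27. It was at 7.98, 8.25 and 8.38 in the null arrays, against 7.61, 7.44 and 7.55 in the wild-type arrays. The groups were apart, with the wild-type arrays near the background level, and the change was 0.67 (SE 0.099, adjusted p = 0.000729). It was under 1.5-fold without null array 3, at 0.581 (adjusted p = 0.00163), and with a correction for gene length, at 0.53 (adjusted p = 0.00275). The partner genes were looked up after the value of mug20 had been seen. The gene rec25 rose by 0.78 (SE 0.048) and rec10 by 0.66 (SE 0.070), while rec27 was at or below background in both groups, so no size is given for it. The genes for Hop1 and the kinase Mek1, which act on linear elements, had changes of 0.08 (adjusted p = 0.111) and 0.29 (adjusted p = 0.0115), under 1.5-fold.

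The largest fall was that of mug8 (SPAC32A11.01), at 6.96, 7.54 and 7.67 in the null arrays, against 8.77, 8.29 and 8.92 in the wild-type arrays. The null array 1 was below the background level and the other null arrays just above it, so the size of the fall rests on values that the background compresses. The change was -1.27 (SE 0.22, adjusted p = 0.00161), and the wild-type level was 2.41 times the null level.

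For mug184 the null arrays were at 7.53, 7.63 and 7.72 and the wild-type arrays at 8.49, 8.35 and 8.63. The groups were apart, with the null arrays near the background level, and the change was -0.87 (SE 0.079, adjusted p = 6.58e-05). Of its measured neighbours, nrs1, which encodes the cytoplasmic asparaginyl-tRNA synthetase, had a change of -0.51 (SE 0.031), under 1.5-fold, and omh4 on the other side had a change of 0.07 (adjusted p = 0.255).

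The cyclin-like gene clg1 (mug80) was at 9.93, 10.02 and 10.01 in the null arrays, against 10.66, 10.70 and 10.72 in the wild-type arrays. Both groups were tight and far apart relative to their spread, and the change was -0.71 (SE 0.035, adjusted p = 7.83e-06).

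The changes of mug165, egt1 and mug64 were -0.62 (SE 0.069), -0.62 (SE 0.072) and -0.60 (SE 0.031). The gene egt1 (mug158) encodes an enzyme of the synthesis of ergothioneine, a sulfur-containing antioxidant. It was at 10.48, 10.78 and 10.59 in the null arrays, against 11.23, 11.25 and 11.23 in the wild-type arrays. The groups were apart, and the null arrays varied more than the wild-type arrays. The RefSeq gene models of egt1 and ppr1 overlap over 65.5% of the length of egt1, and ppr1 had a change of -0.44 (SE 0.038), so the signals of both genes are uncertain. All 3 of these falls were near the 1.5-fold threshold, and median centring took each of them under it.

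Just under the threshold stood members that passed the adjusted p but not 1.5-fold. The nearest on the higher side were sdu1 (mug67) at 0.57, mug151 at 0.50 and atg1802 (mug179), an autophagy gene, at 0.46. On the lower side the nearest were mug124 at -0.49, mug117 at -0.47 and dph6 (mug71), of the synthesis of diphthamide, at -0.45. No mug gene changed by 1.5-fold and missed the adjusted p.

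The middle of the distribution lay somewhat above that of all probe sets. The median change of the 115 mug genes was 0.08, beside -0.05 for all *S. pombe* probe sets, and 64 changes were positive and 51 negative. The central 50% of the mug changes lay between -0.13 and 0.30, against -0.25 and 0.15 for all probe sets. The SD of the changes was 0.48 for mug genes and 0.41 for all. On the adjusted p alone, 47 mug genes (40.9%) were higher in the null and 28 (24.3%) lower, while the shares of all probe sets were 29.3% higher and 41.3% lower. The remaining 40 mug genes (34.8%) missed the adjusted p. Of those that passed it, 33 on the higher side (28.7% of mug genes) and 22 on the lower side (19.1%) stayed within 1.5-fold. Most passes among all probe sets stayed within it as well, since only 4.22% of all rose and 4.39% fell.

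**Figure D2:**
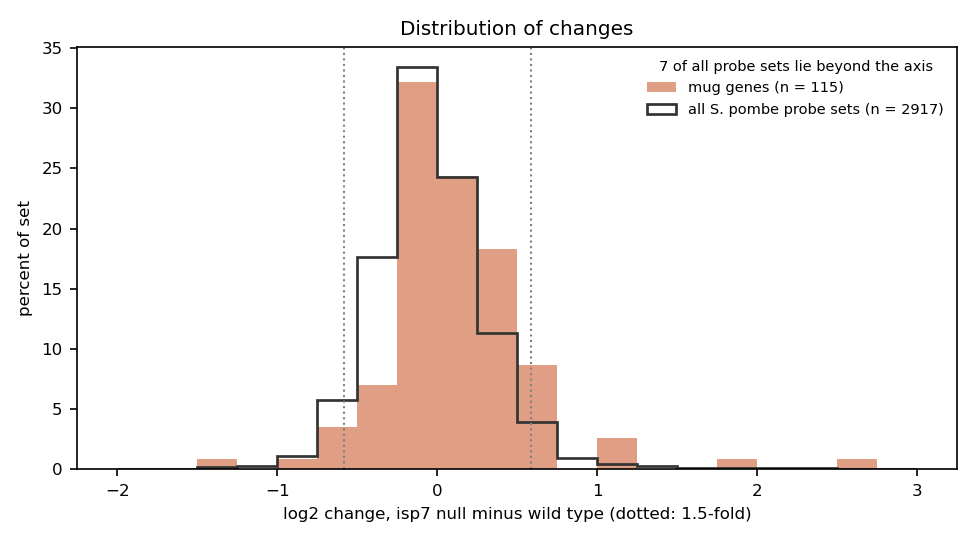
The histogram shows the log2 change, isp7 null minus wild type, in steps of 0.25 as a percentage of each set, filled for the 115 mug genes and outlined for the 2917 *S. pombe* probe sets. Dotted lines mark 1.5-fold. The mug genes take a larger share than all probe sets between 0.25 and 0.75 and a smaller share between -0.75 and -0.25.

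In terms of the arrays themselves, all 3 null arrays lay above all 3 wild-type arrays for 46 mug genes (40.0%, against 30.9% of all probe sets). They lay below for 27 (23.5%, against 45.2%), and the groups overlapped for 42 (36.5%), a larger share than among all probe sets. The median deviation of the mug genes from their own means over all arrays was -0.04, 0.05 and 0.05 on the 3 null arrays, against -0.01, -0.08 and -0.03 on the 3 wild-type arrays. On this median, null array 1 lay within the range of the wild-type arrays and the other null arrays above it. Relative to the same median over all *S. pombe* probe sets on each array, the mug genes were at 0.00075, 0.068 and 0.061 on the null arrays, against -0.042, -0.097 and -0.054 on the wild-type arrays. On this relative scale every null array lay above every wild-type array. Wild-type array 2 held the lowest wild-type value in 12 of the 14 mug rises (85.7%) and in 59.3% of the 123 rises among all probe sets. Without that array 12 mug genes passed as rises, with mug153 and mug191 lost, and its part in the other values was not tested.

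Many mug genes were dim. For 95 of 115 (82.6%) both group means were above the background level, against 97.4% of all *S. pombe* probe sets. For 16 (13.9%, against 1.99%) both means were at or below it, and for 4 only 1 group was above it. The mean over all arrays lay within 0.5 of the background level for 12 mug genes and within 1 for 27. The median level of the mug genes was 9.56 in the null and 9.25 in wild type, and that of all probe sets was 11.49 in the null and 11.53 in wild type. The median SD between arrays of 1 group was 0.083 in the null and 0.070 in wild type for mug genes, against 0.046 in the null and 0.038 in wild type for all probe sets.

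The 16 mug genes at background included the lowest of all, mug116 (5.59 in the null, 5.52 in wild type), mug96 (5.74 in the null, 5.72 in wild type) and fzr3 (mug55, 5.72 in the null, 5.82 in wild type), which encodes a relative of the activators of the anaphase-promoting complex. Also among them, and named for their known roles after the values had been seen, were mug27, a kinase gene, and mug28, which encodes an RNA-binding protein; both are needed for proper forespore membranes. The changes of the 16 lay between -0.17 and 0.18, about the span of the central 95% of the budding yeast probe sets' changes, and none was called. With both groups not above background, these values show no level to compare.

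For the 4 members above background in 1 group, any size is only a bound. The null was at least 1.03-fold above wild type for mug163 (adjusted p = 0.00216), and wild type was at least 1.05-fold above the null for mug42 (adjusted p = 0.0354), both under 1.5-fold. The other two, mug108 (adjusted p = 0.079) and mug62 (adjusted p = 0.119), missed the adjusted p, and no fold is given for them. All 20 called members had both means above background.

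**Figure D3:**
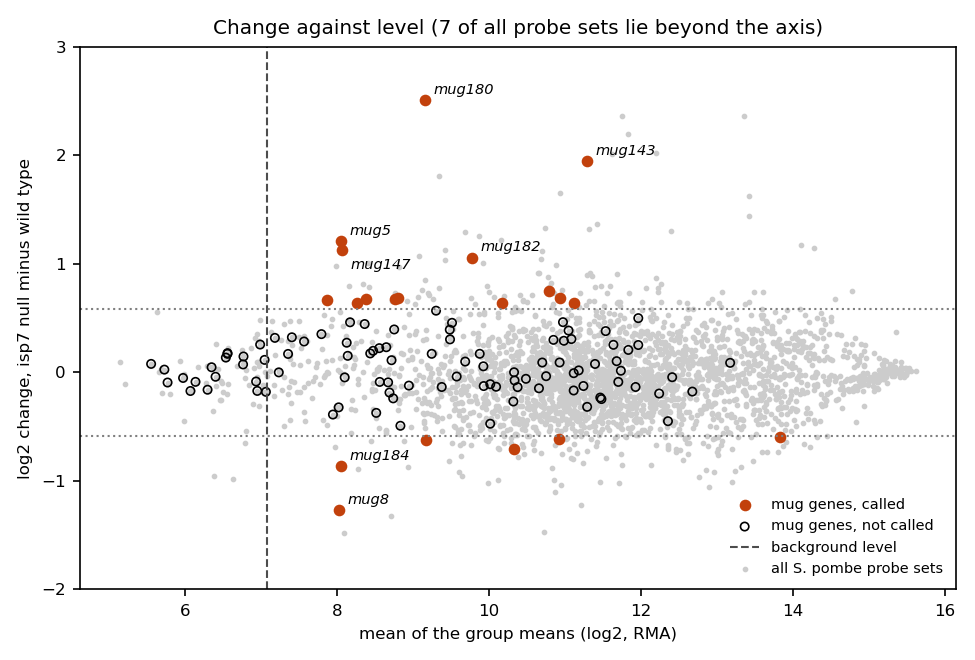
Each point is a probe set, with the mean of the 2 group means on the horizontal axis and the change, isp7 null minus wild type, on the vertical axis, both on the log2 scale. Filled circles are the 20 mug genes that rose or fell, open circles the other 95 and grey points all *S. pombe* probe sets. The dashed line is the background level, and dotted lines mark 1.5-fold. Several called mug genes, among them mug5, mug147, mug184 and mug8, lie within about 1 log2 unit above the background level, and none lies below it.

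The rises were not limited to one range of signal. Between 0 and 2 log2 units above the background level stood 35 mug genes, of which 7 rose (20.0%) and 2 fell, beside 165 other *S. pombe* probe sets, of which 7.27% rose. Between 2 and 4 units, 5 of 35 mug genes rose (14.3%), against 5.08% of 826 others. Above 4 units, 2 of 26 mug genes rose (7.69%), against 3.12% of 1760 others. Probe sets differ in how brightly they report a transcript, so these bands sort signals and not transcript numbers.

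At the bright end stood mug64 (13.54 in the null, 14.14 in wild type), which fell, and igo1 (mug134), whose product, an endosulfine, inhibits protein phosphatase 2A when phosphorylated. The values of igo1 were 13.22, 13.30 and 13.14 in the null arrays, against 13.19, 13.08 and 13.13 in the wild-type arrays, and they overlapped. Next came snd2 (mug69), of protein targeting to the endoplasmic reticulum, with a change of -0.18, mug161 with -0.05 and dph6. The members with the smallest changes above background were mug135, mug9 and mug89, with changes of -0.01 for mug89 and closer to 0 for the other two.

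The 24 members now known by another name include genes whose work is not particular to meiosis. Of these 24, say1 and oxr1 rose and clg1 and egt1 fell, with a median change of 0.09 and median levels of 10.68 in the null and 10.67 in wild type. Of the 91 that still carry a mug symbol, 12 rose (13.2%) and 4 fell, with a median change of 0.05 and median levels of 8.86 in the null and 8.79 in wild type. Whether the 2 sets differ was not tested.

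Within the renamed members, the autophagy genes atg101 (mug66) and atg1802 had changes of 0.27 (adjusted p = 0.00855) and 0.46 (adjusted p = 3.85e-05), and epr1 (mug185), a receptor that brings endoplasmic reticulum to autophagy, had a change of -0.13 (adjusted p = 0.0205). The sorting nexin gene snx41 (mug186) changed by 0.38 (adjusted p = 5.9e-05), the dynactin subunit gene jnm1 (mug1) by 0.44 (adjusted p = 0.00198) and the tricalbin gene tcb2 (mug190) by 0.46 (adjusted p = 0.0398). For teb1 (mug152) the change was -0.32 (adjusted p = 0.00109). The histone chaperone gene rtt106 (mug183) and mmb1 (mug164), which links mitochondria to microtubules, had changes of 0.09 and -0.13. None of these 9 reached 1.5-fold.

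Of the 61 genes with a mug name only as a synonym, 3 rose (4.92%, against 4.22% of all probe sets) and 5 fell (8.2%, against 4.39%), and their median change was 0.01. The rises were near the share over all probe sets. They were those of bqt1, rec25 and pmp31, and the falls those of nep2, jmj4, spo7, tpz1 and adg2, all 8 named after their values were seen. The meu genes, named for the same property in another screen, had 18 measured members, of which meu31 (0.68, SE 0.12) and meu23 (0.63, SE 0.082) rose and meu18 (-0.59, SE 0.026), just at the threshold, fell. With 18 genes these are 11.1% and 5.56%, against 4.22% and 4.39% of all probe sets, and the median change was 0.20. Without wild-type array 2 a single meu gene passed as a rise and none as a fall, and no meu gene passed as a fall without wild-type array 3 or without null array 3.

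Position in the genome gave neighbours to compare. In the RefSeq annotation, 109 of the 115 mug genes overlap another gene, 54 a protein-coding gene and 83 a non-coding one. All 20 called members overlap some gene, and the share over all *S. pombe* genes is not given. Overlaps were taken from positions without strand, so an overlapping gene may lie on the other strand. The share of an overlapping transcript in any signal is therefore uncertain. There were 5 pairs of mug genes next to each other. The pair atg101 and mug105 had changes of 0.27 and -0.32, both with an adjusted p under 0.05 and in opposite directions. The overlapping pair mug57 and mug97 had changes of 0.17 and 0.15, of which the second missed the adjusted p. In each of the other 3 pairs, mug163 with fzr3, mug177 with mug58 and mug116 with mug86, at least 1 member was at or below background, so their changes were not compared. No member of these pairs was called.

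Changes ran with gene length over all genes, and the mug genes were shorter. Their median length in the RefSeq table was 1592 bases (348 to 6037), against 1876 for all. Across the 115 mug genes the change and the length had a Spearman correlation of -0.20, and across all 2917 probe sets of -0.37. All of these points come from the same 6 arrays, and genes are not independent replicates. Of the 58 mug genes at or under the median length 9 rose and none fell, and of the 57 longer ones 5 rose and 6 fell. Among all probe sets at or under that length 6.17% rose and 1.07% fell, and among the longer ones 3.00% rose and 6.45% fell. With the slope on length removed from each array, 11 mug genes passed as rises and 7 as falls. The share of all probe sets called in that fit is not given, so these counts have no background beside them. In that fit the shorter set had 5 rises and 2 falls, mug16, mug20, mug73, mug95 and egt1 were no longer called, and tcb2 (mug190) was gained as a rise and mug117 and mug155 as falls. Of the reported calls, 10 rises and 5 falls were among those of that fit. The part of length in the individual changes was not tested further.

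**Figure D4:**
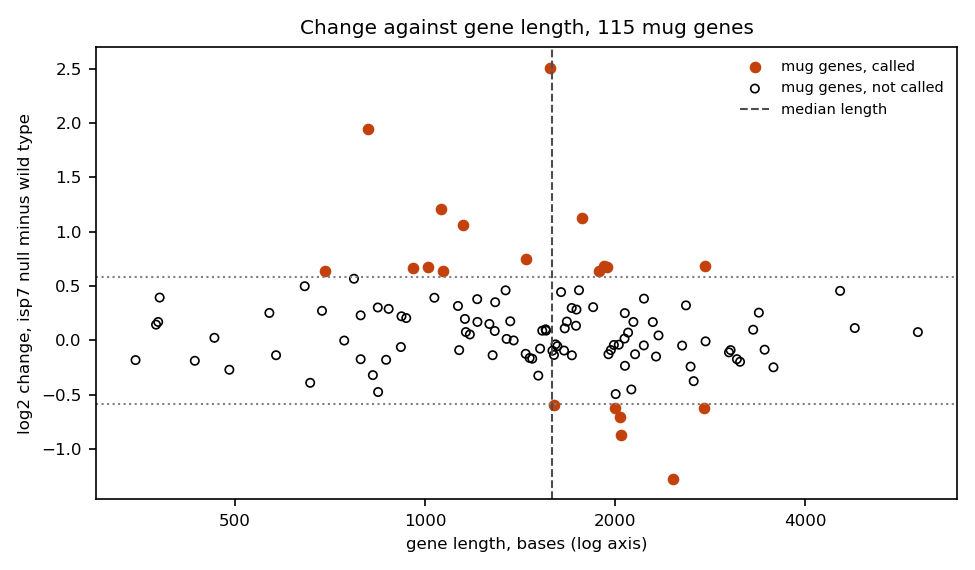
The log2 change, isp7 null minus wild type, of each of the 115 mug genes is plotted against gene length in bases on a log axis. Filled circles rose or fell, open circles did not, the dashed line is the median length of 1592 bases and dotted lines mark 1.5-fold. All 6 falls lie to the right of the median length, and the rises lie on both sides.

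The regulators of entry into meiosis, which act before most meiotic transcripts, gave 3 rises and no fall among 16 measured of 17 listed, while 4.22% of all probe sets rose and 4.39% fell. Their median change was 0.01, and it was -0.000358 without null array 1 and -0.0349 with the length correction. The largest rise was that of mei2, at 11.98 ± 0.064 in the null and 10.66 ± 0.17 in wild type (SD, n = 3 each), a change of 1.32 (SE 0.082, adjusted p = 1.35e-05). The gene of the zinc finger factor Rsv2 followed with 1.04 (SE 0.29), and its null arrays were widely spread at 10.63, 9.81 and 9.40. The gene rep1, which is needed for the start of premeiotic DNA synthesis, rose by 0.73 (SE 0.056). The remaining regulators stayed under 1.5-fold, with ste11 at 0.44 (SE 0.14, adjusted p = 0.0241), the meiotic cyclin gene crs1 at 0.34 (SE 0.087), pat1 at -0.45 (SE 0.063), mmi1 at -0.37 (SE 0.027) and red1 at -0.28 (SE 0.054). With the length correction ste11 was at 0.605 (adjusted p = 0.00659) and passed as a rise, and without null array 1 it was at 0.287.

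Of the later regulators, mei4 averaged 7.72 in the null and 7.83 in wild type, a change of -0.10 (adjusted p = 0.396). The genes mei3, whose product inactivates Pat1, and atf21 were at or below background in both groups.

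**Figure D5:**
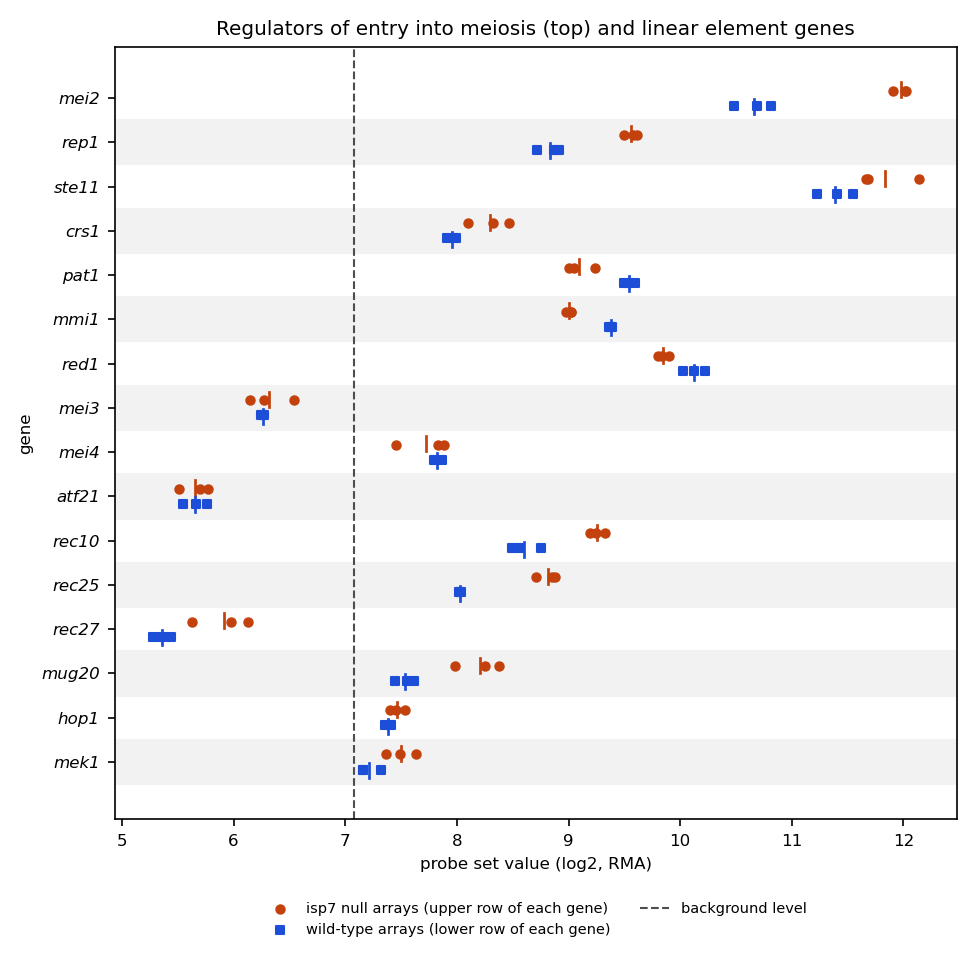
Log2 values on every array are shown for 10 regulators of meiotic entry, from mei2 to atf21, and for 6 genes of linear elements, from rec10 to mek1. Circles in the upper row of a gene are isp7 null arrays, squares in the lower row are wild-type arrays, short vertical bars are group means and the dashed line is the background level of 7.08. The null arrays of mei2, rep1, ste11, crs1, rec10, rec25, mug20 and mek1 lie above the wild-type arrays, those of pat1, mmi1 and red1 lie below them, and mei3, atf21 and rec27 are below the background level.

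Among 42 measured genes of meiotic recombination, cohesion and chromosome movement, bqt1, which helps to gather telomeres at the spindle pole body, rose by 1.01 (SE 0.13), rec25 and rec10 rose and none fell. For this list and the spore list below, the shares over all probe sets were 4.22% rises and 4.39% falls. Of these 42 genes, 14 are among the 61 with a mug name as synonym, bqt1 and rec25 included, so the lists share members. The median change of these 42 was 0.14, and 6 of them were at or below background in both groups. Without null array 1 the list had 5 rises, and without null array 3 it had 1 fall. Among 22 measured genes of spore formation, isp6, which encodes a vacuolar protease, rose by 1.63 (SE 0.064), and spo6, spo7 and spo14 fell. The changes of spo7 and spo14 were -0.64 (SE 0.061) and -0.60 (SE 0.035). The null mean of spo6, at 6.14, was below background and its wild-type mean, at 7.12, just above it, so the size of its fall is not given. Of the 22 genes, 3 have a mug name as synonym, and of those that rose or fell only spo7 does. The median change of these 22 was -0.06, and it was -0.0132 without null array 1, -0.0107 with the background filter and -0.0127 with median centring.

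Some markers of other cell states moved with the comparison as well. For the marker lists in this paragraph too, the shares over all probe sets were 4.22% rises and 4.39% falls. Of 7 markers of starved or stationary cells, isp5, isp4, isp6 and ctt1 rose. The changes of hsp9, gpd1 and fbp1 were 0.37, 0.13 and -0.02, under 1.5-fold. The mean level of the list was 13.07 to 13.24 on the null arrays, against 11.45 to 11.81 on the wild-type arrays. Its median change was 0.91, while isp5 and isp4 changed by 4.41 and 3.30, so this mean follows those genes most. Of 10 markers of differentiating or meiotic cells, mfm1, mei2 and mam2 rose, and the list mean was 8.99 to 9.07 on the null arrays, against 8.35 to 8.38 on the wild-type arrays. The median change of these 10 was -0.02 with 5 of them positive, and mfm1 alone changed by 4.25, so the list mean follows a few genes. The changes of mei4, spo5 and map2 in that list were negative, at -0.10, -0.20 and -0.09. Of the others in it, rec8, the meiotic cohesin gene, and isp3, a spore coat gene, were at or below background in both groups. Of 5 genes of M mating type 4 rose (list mean 11.92 to 12.05 on the null arrays, 10.41 to 10.48 on the wild-type arrays). The median change of the M list was 1.01, so its mean follows mfm1 most. Of 4 genes of P mating type map1 rose by 0.76, and map4 changed by 0.40, under 1.5-fold. The changes of map2 and map3 were negative, at -0.09 and -0.13. The P list mean was 9.07 to 9.13 on the null arrays and 8.82 to 8.91 on the wild-type arrays, so it follows map1 and map4. The lists share genes with each other and with those above, among them isp6, mei2, mfm1 and mam2, so their rises are not separate results. The part of these states in the mug changes was not tested.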

How the data were processed

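The authors deposited 1 log2 value per probe set for each of 6 one-colour Affymetrix arrays, made with RMA in Partek 6.5 per the submitters' processing notes. RMA gives all arrays a common distribution, which hides global changes in RNA per cell, and it compresses differences near background. Arrays carry no read depth, so their number sets the precision.

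Gene names came from the platform annotation, updated through the RefSeq gene table of assembly ASM294v3, which also gave lengths and neighbours. No build is given for the array in the sources used here, so no coordinates are printed. Of 10928 probe sets, 2917 named 1 *S. pombe* gene (3 matched by symbol), 2601 carry *S. cerevisiae* names, 213 are controls, 20 name several genes and 5177 are unnamed here.

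The contrast was fitted to all 2917 with limma 3.58.1 (lmFit, eBayes) in R 4.3.3, two-sided, with Benjamini-Hochberg adjustment. The thresholds (false discovery rate 0.05, 1.5-fold, 2-fold) follow the series' design text. Errors are SD for group values and limma's SE for changes. The fit was tested on simulated data. The members, lists and thresholds were chosen with earlier results of these data known. Named were isp7, every member that rose or fell, the nearest 3 each way under 1.5-fold, the 5 highest and 3 lowest members, the 3 smallest changes above background, 10 fixed regulators and up to 3 called genes each way per list, and any other gene only after its values were seen. Deviations of same-numbered arrays of the 2 groups correlated at -0.116, -0.251 and 0.108, so the numbers were not taken as pairs. Alternatives were other variance models, scalings, filters, memberships, thresholds and background levels, a length correction, a replicate block and leaving out each array. Promoters and proteins were not analysed here.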

Additional observations from a re-analysis of the deposited data

How the results depend on the processing

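In 16 other fits, 8 rises (mug180, mug143, mug5, mug147, mug182, mug63, mug4 and mug121) and 3 falls (mug8, mug184 and mug80) were called every time. Leaving out 1 array at a time gave 12 to 15 rises and 4 to 6 falls among mug genes. Shares over all probe sets are not given for the other fits. Without null array 2 or wild-type array 2, mug153 and mug191 were lost, without null array 3 mug20, without null array 1 mug158 and mug165, and without wild-type array 1 mug165 and mug64. In 4 fits (without null array 1, wild-type array 1 or wild-type array 3, and with median centring) mug67 was gained. With the length correction mug190 was gained as a rise and mug117 and mug155 as falls. The replicate block gave 14 rises and 6 falls, the same genes as without it. The count of falls was 3 with median centring. It was 11 when the 61 genes with a mug name only as synonym were added to the 115 members, which is a larger set and not another fit. Of those 61 genes, 3 rose (4.92%, against 4.22% of all probe sets) and 5 fell (8.2%, against 4.39%). The share that rose in the larger set was therefore below the 12.2% of the 115 members. The 2-fold threshold left 5 rises and 1 fall. Median centring moved the median change of mug genes to 0.125 and that of all probe sets to -0.00317, and adding the synonyms moved that of mug genes to 0.0266. With the background at the median of the *S. cerevisiae* probe sets, 2 mug genes were below it in both groups.

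Among the other lists, meu genes had 1 rise and 2 falls with the length correction, 4 rises and 0 falls with median centring and 0 falls with repeated quantile normalization. When each array was left out they had 1 to 3 rises and 0 to 1 falls, and the recombination list had 3 to 5 rises and 0 to 1 falls. The median change of the entry regulators was -0.0349 with the length correction, 0.0557 with median centring and -0.000358 to 0.0584 with 1 array left out. That of the recombination list was 0.192 with median centring. That of spore formation was -0.0107 with the background filter, -0.0127 with median centring, -0.0161 with quantile normalization and -0.0723 to -0.0132 with 1 array left out. That of meu genes was 0.299 with the background filter, 0.251 with median centring and 0.124 to 0.288 with 1 array left out.

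Some changes near 0 turned sign. With median centring the changes were 0.00277 for mug161, 0.0485 for mug135, 0.0473 for mug9 and 0.0399 for mug89. With the length correction they were -0.0216 for mug116, -0.269 for mug96, 0.0787 for mug89, -0.0196 for mei3 and -0.0505 for atf21. Quantile normalization gave 0.0651 for mug135, 0.0536 for mug89 and -0.0154 for atf21. With 1 array left out, the changes spanned -0.0316 to 0.0903 for mug96, -0.0444 to 0.0751 for mug135, -0.0612 to 0.0818 for mug9, -0.0236 to 0.0153 for mug89, -0.0511 to 0.146 for mei3, -0.185 to 0.0285 for mei4 and -0.0529 to 0.0771 for atf21. The causes were not tested. With 3 arrays a group, and signals near background for part of the mug genes, small changes of dim members cannot be resolved.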
